A study of Mus musculus with 9 samples.

Results

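Akr1b8, an aldo-keto reductase that reduces aldehydes, and 9 classic genes of the oxidative stress response governed by the transcription factor NRF2 were examined in neutrophils sorted from mouse skin lesions and from the skin around them. The 10 genes are Akr1b8, Nfe2l2 (which encodes NRF2), Nqo1, Hmox1, Gclm, Gclc, Srxn1, Txnrd1, Slc7a11 and Prdx1. All 10 had a probe among the 34797 gene names on the array, and they had 12 probes among 55681. Akr1b8 was picked because its values in these samples were higher in both lesions than in skin, so its lesion and skin values are a description and carry no test. The other 9 were picked as the pathway around it.

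The FVB/N mice of all 4 groups had received the carcinogen DMBA at weeks 6 and 13 of age. They also received the tumor promoter PMA repeatedly from week 1 until week 18 to 20, which the paper does not give as weeks of age. Gr-1bright neutrophils were sorted to a purity above 98% from papillomas (3 arrays), from tumors (2 arrays), from the skin next to papillomas (papilloma skin, 2 arrays) and from the skin next to tumors (tumor skin, 2 arrays). All 4 groups therefore came from carcinogen-treated animals, and no array held neutrophils of untreated skin. RNA of several mice was pooled for each array, which makes the array the replicate, and lesions had been digested with more enzymes than skin. The arrays were one-color Agilent expression arrays. Levels below are the deposited values, on a log2 intensity scale, and because each probe binds with its own strength no probe was compared with another.

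In cells at rest NRF2 is bound by KEAP1 and degraded. Electrophiles and oxidants release it, and with a small MAF protein it then binds antioxidant response elements near genes for glutathione synthesis, the thioredoxin system, heme breakdown and detoxification. Neutrophils make bursts of reactive oxygen themselves, and the same genes keep their own proteins reduced.

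Several arrays stood apart. On papilloma skin 1, tumor skin 1 and tumor 1, 95%, 90.7% and 94.3% of the probes were well above background, against 43.5% to 63.5% on the other 6. The deposited columns of papilloma skin 1 and tumor 1 ranked the probes less like their own scanner output (Spearman's rho 0.587 and 0.825) than like that of tumor 2 (0.923 and 0.946). For papilloma 2 and papilloma 3, the best match of each column was the scanner output of the other (0.981 and 0.958), which leaves the papilloma mean of the table as it is but not the assignment to slides. Results are therefore also given without the columns of papilloma skin 1 and tumor 1 (7 columns) and from the scanner output. With 2 or 3 arrays a group, p-values measure the spread between these pools only.

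Antioxidant response elements share a short core, and the 250 bases upstream of the RefSeq start (build GRCm38.p6) were searched for its letters, TGACNNNGC or TGAGNNNGC, on both strands. A core with TGAGTCA or TGACTCA inside it also holds the letters of an AP-1 site. Of all 32851 upstream windows in the RefSeq table, 10.2% held the former core, 14.4% the latter and 23.0% either. The table held a window for 8 of the 10 genes, and 6 of these 8 held a core: Nfe2l2, Gclm, Prdx1, Slc7a11, Srxn1 and, in 1 of its 3 windows, Txnrd1. Akr1b8 and Nqo1 held none. Hmox1 and Gclc were not in the table. The window of Akr1b8 is shown with those of Srxn1 and Prdx1, whose cores hold the AP-1 letters, and of Gclm, whose core does not. Capitals mark cores, read 5′ to 3′ on the strand of the gene, and a match or its absence describes these letters only.
Akr1b8 (chr6:34353896-34354145, plus strand): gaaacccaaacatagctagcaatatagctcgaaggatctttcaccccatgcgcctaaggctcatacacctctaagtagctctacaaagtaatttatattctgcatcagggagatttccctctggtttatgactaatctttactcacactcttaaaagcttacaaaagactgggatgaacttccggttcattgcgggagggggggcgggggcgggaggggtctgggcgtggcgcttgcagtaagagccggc
Srxn1 (chr2:152105274-152105523, plus strand): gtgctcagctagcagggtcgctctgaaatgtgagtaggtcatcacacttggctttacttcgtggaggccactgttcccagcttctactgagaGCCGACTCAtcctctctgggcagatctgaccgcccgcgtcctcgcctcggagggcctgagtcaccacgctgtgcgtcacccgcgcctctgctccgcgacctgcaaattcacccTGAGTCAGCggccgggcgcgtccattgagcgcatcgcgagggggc
Prdx1 (chr4:116685349-116685598, plus strand): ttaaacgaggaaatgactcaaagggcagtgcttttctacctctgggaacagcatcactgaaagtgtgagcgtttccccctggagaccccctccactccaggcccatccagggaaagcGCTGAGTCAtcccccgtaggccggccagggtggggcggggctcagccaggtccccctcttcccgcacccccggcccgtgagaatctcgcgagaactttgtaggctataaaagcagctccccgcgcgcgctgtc
Gclm (chr3:122245307-122245556, plus strand): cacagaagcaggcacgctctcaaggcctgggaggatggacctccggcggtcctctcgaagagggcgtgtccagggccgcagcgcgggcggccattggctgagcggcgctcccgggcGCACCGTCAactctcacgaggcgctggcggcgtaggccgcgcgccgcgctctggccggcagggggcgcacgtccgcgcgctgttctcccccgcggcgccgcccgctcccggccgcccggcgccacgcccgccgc
Srxn1 held 2 cores, at 158 to 150 and at 45 to 37 bases before its start, and the nearer one holds the AP-1 letters. The core of Prdx1, 133 to 125 bases before its start, lies on the opposite strand and holds them too. The core of Gclm lies 134 to 126 bases before its start, also on the opposite strand.

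Akr1b8 was read by a probe on chromosome 6 at 34318338 to 34318397 of build mm9, which was printed as 10 spots an array and stood well above background throughout. Its level was 8.13 and 7.48 in papilloma skin, 10.42, 9.65 and 9.69 in papilloma, 6.46 and 7.31 in tumor skin, and 8.94 and 10.02 in tumor. Every lesion array was above every skin array. The group means were 7.81 ± 0.46 (SD, n = 2) in papilloma skin, 9.92 ± 0.43 (n = 3) in papilloma, 6.89 ± 0.60 (n = 2) in tumor skin and 9.48 ± 0.76 (n = 2) in tumor. Papilloma thus exceeded papilloma skin by 2.11 on the log2 scale, a 4.32-fold difference, and tumor exceeded tumor skin by 2.59, a 6.03-fold difference.

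**Figure D1:**
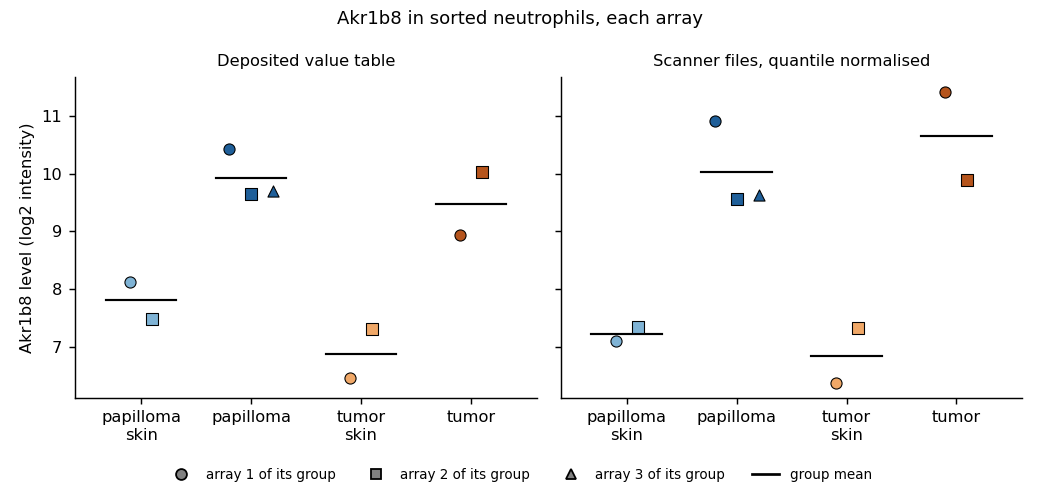
Akr1b8 level (y axis, log2 intensity) in each of the 4 groups (x axis), from the deposited table (left) and from the scanner output after quantile normalization (right). Each point is an array, its shape giving the array's number within its group, and lines are group means; the 5 lesion arrays sit between 8.94 and 10.42 on the left, above the 4 skin arrays at 6.46 to 8.13.

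Within slide 1 the papilloma array exceeded the papilloma skin array by 2.29, and within slide 2 by 2.16. The tumor array of slide 1 exceeded its tumor skin array by 2.48, and no other slide held both groups. Both slide 1 differences rest on the columns of papilloma skin 1 and tumor 1, which stood apart. That of slide 2 rests on papilloma 2, whose slide is in doubt. In the scanner output after quantile normalization the same differences were 3.796, 2.209 and 5.038. Without the columns of papilloma skin 1 and tumor 1 the differences between group means were 2.43 in papilloma and 3.13 in tumor. In the scanner output after quantile normalization, Akr1b8 was at 7.10 and 7.35 in papilloma skin, 10.90, 9.56 and 9.62 in papilloma, 6.38 and 7.33 in tumor skin, and 11.41 and 9.90 in tumor. Lesion and skin arrays were apart there as well. The SD of the log2 signal over the 10 spots of an array, a measure of technical spread only, was 0.0691 to 0.240.

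The stages were compared with limma, which the choice of Akr1b8 had not used. Tumor and papilloma arrays overlapped, and tumor minus papilloma was -0.44 (SE 0.41, 95% interval -1.37 to 0.50, adjusted p = 0.648). This difference was above 0 in 4 of 5 treatments of the scanner output (0.63 after quantile normalization without a slide term) and without tumor 1 (0.10). Tumor skin arrays lay below both papilloma skin arrays, with a difference of -0.92 (SE 0.45, 95% interval -1.95 to 0.11, adjusted p = 0.258). In the scanner output the skins overlapped. From the highest level, the order of the groups in the table was papilloma, tumor, papilloma skin and tumor skin, and neither the pair of lesions nor the pair of skins differed past the threshold.

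Akr1b8 belongs to a family with close sequence relatives, and binding of their transcripts to its probe was not tested. Akr1b3 (aldose reductase) differed from skin by -0.79 and -0.60 in papilloma on its 2 probes and by -0.32 and -0.03 in tumor. Akr1b10 differed by -0.73 and -0.69 in papilloma and by 0.02 and -0.13 in tumor. The single Akr1b7 probe was well above background on 3 arrays, those with most probes above background, and differed by 0.26 and -0.20. None of these 10 differences passed the test (limma, adjusted p from 0.222 to 0.981). Among 18816 gene names with a mean level of at least 6, the 5 whose values over the 9 columns were most like those of Akr1b8 were Lonrf3, Cttn (cortactin, a regulator of branched actin), Morc2a, Ppif (cyclophilin D of the mitochondrial permeability pore) and 1810011O10Rik. Their Pearson correlations were 0.995, 0.995, 0.993, 0.991 and 0.991 over 9 points that share arrays and normalization. Lonrf3 was at 7.21 and 6.77 in papilloma skin, 9.13, 8.67 and 8.78 in papilloma, 6.16 and 6.82 in tumor skin, and 8.09 and 8.96 in tumor. Of the other 9 members, Hmox1 and Gclc were most like Akr1b8, both with a correlation of 0.851 at ranks 1488 and 1491, followed by Srxn1 with 0.746. Nfe2l2 had -0.396.

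Nfe2l2 itself was high on its own scale and close to even across groups. Its level was 13.67 and 14.33 in papilloma skin, 13.76, 13.92 and 13.44 in papilloma, 13.75 and 13.94 in tumor skin, and 14.00 and 13.64 in tumor. All 4 groups overlapped. Papilloma minus papilloma skin was -0.29 (SE 0.24, 95% interval -0.83 to 0.25, adjusted p = 0.545), and tumor minus tumor skin was -0.03 (SE 0.26, 95% interval -0.62 to 0.57, adjusted p = 0.963). The papilloma difference was 0.30 in the scanner output after quantile normalization, with overlap. NRF2 is regulated largely through its protein, which the arrays do not measure.

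Hmox1 encodes the heme oxygenase that breaks heme down to biliverdin, iron and carbon monoxide. Of the 9 members tested against skin, Hmox1 alone passed all 3 criteria in a lesion. Its probe A_51_P263965 (chromosome 8, 77624207 to 77624266, mm9) read 11.30 and 11.32 in papilloma skin, 13.47, 13.77 and 11.80 in papilloma, 10.50 and 11.24 in tumor skin, and 12.87 and 14.52 in tumor. All lesion arrays were above all skin arrays, with papilloma 3 closest to skin. Hmox1 rose in tumor by 2.82 over tumor skin (SE 0.70, 7.07-fold, adjusted p = 0.0422 by limma), and in papilloma the difference was 1.70 (SE 0.64, 3.25-fold, adjusted p = 0.175). Its probe A_55_P2029687 (chromosome 8, 77620797 to 77620856, mm9) read 8.48 and 8.53 in papilloma skin, 9.91, 10.90 and 9.46 in papilloma, 8.78 and 8.37 in tumor skin, and 9.83 and 10.86 in tumor. Here too lesions and skin were apart, and the differences of 1.59 in papilloma (SE 0.43, adjusted p = 0.0715) and 1.77 in tumor (SE 0.47, adjusted p = 0.0514) missed the threshold.

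The Hmox1 call in tumor rested on a narrow margin. With slide as a term the tumor difference of A_51_P263965 was 2.15 with an adjusted p of 0.205, whereas the papilloma difference of A_55_P2029687 was 1.88 with an adjusted p of 0.0320. Leaving out tumor 2 gave 1.997 in tumor (adjusted p = 0.232), and leaving out tumor skin 1 gave 2.45 (adjusted p = 0.141). The call was also lost without papilloma skin 1 (adjusted p = 0.0595), papilloma skin 2 (0.0595), tumor skin 2 (0.0725) or papilloma 1 (0.0546), and with the 7 columns (3.65, adjusted p = 0.0722). Without papilloma 2 both probes were called in tumor. In the scanner output tumor minus tumor skin was 2.23 without a slide term and was not called, and its papilloma arrays overlapped papilloma skin. Every one of these settings kept the tumor difference above 0. Tumor minus papilloma was 0.68 (95% interval -0.78 to 2.14) and 0.25 (95% interval -0.73 to 1.24) on these probes, and neither passed the test.

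Glutathione synthesis begins with glutamate cysteine ligase, whose catalytic subunit is encoded by Gclc and whose modifier subunit is encoded by Gclm, and with cystine brought in by the transporter Slc7a11. Gclc was at 9.33 and 8.97 in papilloma skin, 9.93, 9.75 and 9.89 in papilloma, 8.37 and 8.60 in tumor skin, and 8.998 and 9.15 in tumor. Each lesion was above its own skin with no overlap, and tumor lay below papilloma. The papilloma difference of 0.70 (SE 0.16, 1.63-fold, adjusted p = 0.0379) passed the p threshold but not the minimum of 1 on the log2 scale, and the tumor difference was 0.59 (SE 0.17, adjusted p = 0.0708). Tumor minus papilloma was -0.78 (SE 0.16, adjusted p = 0.0890), and tumor skin minus papilloma skin was -0.66 (SE 0.17, adjusted p = 0.0969). The latter was 0.31 in the scanner output without a slide term. In that output after quantile normalization the lesion differences of Gclc were 1.46 in papilloma and 0.36 in tumor. Both were without overlap and neither was called, though that of papilloma was above the minimum of 1.

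Gclm was at 7.79 and 8.01 in papilloma skin, 7.95, 8.09 and 8.51 in papilloma, 8.34 and 8.17 in tumor skin, and 8.63 and 7.94 in tumor. Lesions and skin overlapped at both stages, with differences of 0.29 (95% interval -0.27 to 0.84, adjusted p = 0.566) and 0.03 (95% interval -0.58 to 0.64, adjusted p = 0.960). In the scanner output after quantile normalization without a slide term these were 1.505 and -0.17, again with overlap and without a call. Slc7a11 was at 8.36 and 9.37 in papilloma skin, 9.37, 9.68 and 9.10 in papilloma, 7.72 and 8.08 in tumor skin, and 8.66 and 8.36 in tumor. The 2 papilloma skin arrays lay further apart than either lesion difference, 0.52 in papilloma (adjusted p = 0.387) and 0.61 in tumor (adjusted p = 0.285). Tumor arrays were all below papilloma arrays, with a difference of -0.87 (SE 0.30, adjusted p = 0.258). In the same scanner output the lesion differences of Slc7a11 were 2.12 with overlap and 0.97 without, neither called, and tumor overlapped papilloma.

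The thioredoxin side of the pathway comprised Txnrd1 (thioredoxin reductase of the cytosol), Prdx1 (a peroxiredoxin that removes peroxides) and Srxn1 (sulfiredoxin, which restores overoxidized peroxiredoxins). Srxn1 was at 11.68 and 11.42 in papilloma skin, 11.95, 11.77 and 12.10 in papilloma, 10.85 and 10.94 in tumor skin, and 11.50 and 11.26 in tumor. It sat above its own skin in both lesions without overlap, by 0.39 in papilloma (SE 0.16, adjusted p = 0.208) and 0.49 in tumor (SE 0.17, adjusted p = 0.116), and neither passed. In the scanner output after quantile normalization without a slide term these differences were 1.14 and 0.33, again without overlap and without a call. Txnrd1 was at 13.13 and 13.51 in papilloma skin, 13.21, 13.38 and 13.14 in papilloma, 12.63 and 12.48 in tumor skin, and 12.97 and 12.68 in tumor. Papilloma and papilloma skin overlapped, with a difference of -0.08 (95% interval -0.47 to 0.31, adjusted p = 0.844), and tumor minus tumor skin was 0.27 (95% interval -0.16 to 0.69, adjusted p = 0.401). Both changed sign in the scanner output after quantile normalization, to 0.40 and -0.05, with overlap.

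Prdx1 had a probe A_55_P2147427 at 11.69 and 10.32 in papilloma skin, 10.998, 10.34 and 10.99 in papilloma, 9.42 and 9.87 in tumor skin, and 9.92 and 10.83 in tumor. The papilloma skin arrays were far apart and the papilloma arrays lay between them, whereas both tumor arrays were above both tumor skin arrays. Lesion minus skin was -0.22 in papilloma (adjusted p = 0.824) and 0.73 in tumor (adjusted p = 0.367), and on the dimmer probe A_66_P119421 it was -0.09 (adjusted p = 0.892) and 0.29 (adjusted p = 0.584). The sign in papilloma turned in the scanner output after quantile normalization, to 0.87 without overlap and to 1.59 with overlap, and on A_55_P2147427 it ran from -0.91 to 0.46 as single arrays were left out. Nqo1, the quinone reductase often used as a readout of NRF2, was at 6.85 and 6.24 in papilloma skin, 7.06, 6.33 and 7.20 in papilloma, 5.80 and 6.26 in tumor skin, and 6.42 and 6.22 in tumor. It was not well above background on papilloma skin 2 and tumor skin 2, and lesions overlapped skin at both stages. Its differences were 0.31 (95% interval -0.37 to 1.00, adjusted p = 0.615) and 0.29 (95% interval -0.46 to 1.04, adjusted p = 0.622). In the same scanner output papilloma exceeded papilloma skin by 2.60 without overlap (6.05-fold, adjusted p = 0.486), and tumor minus tumor skin turned to -0.35.

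**Figure D2:**
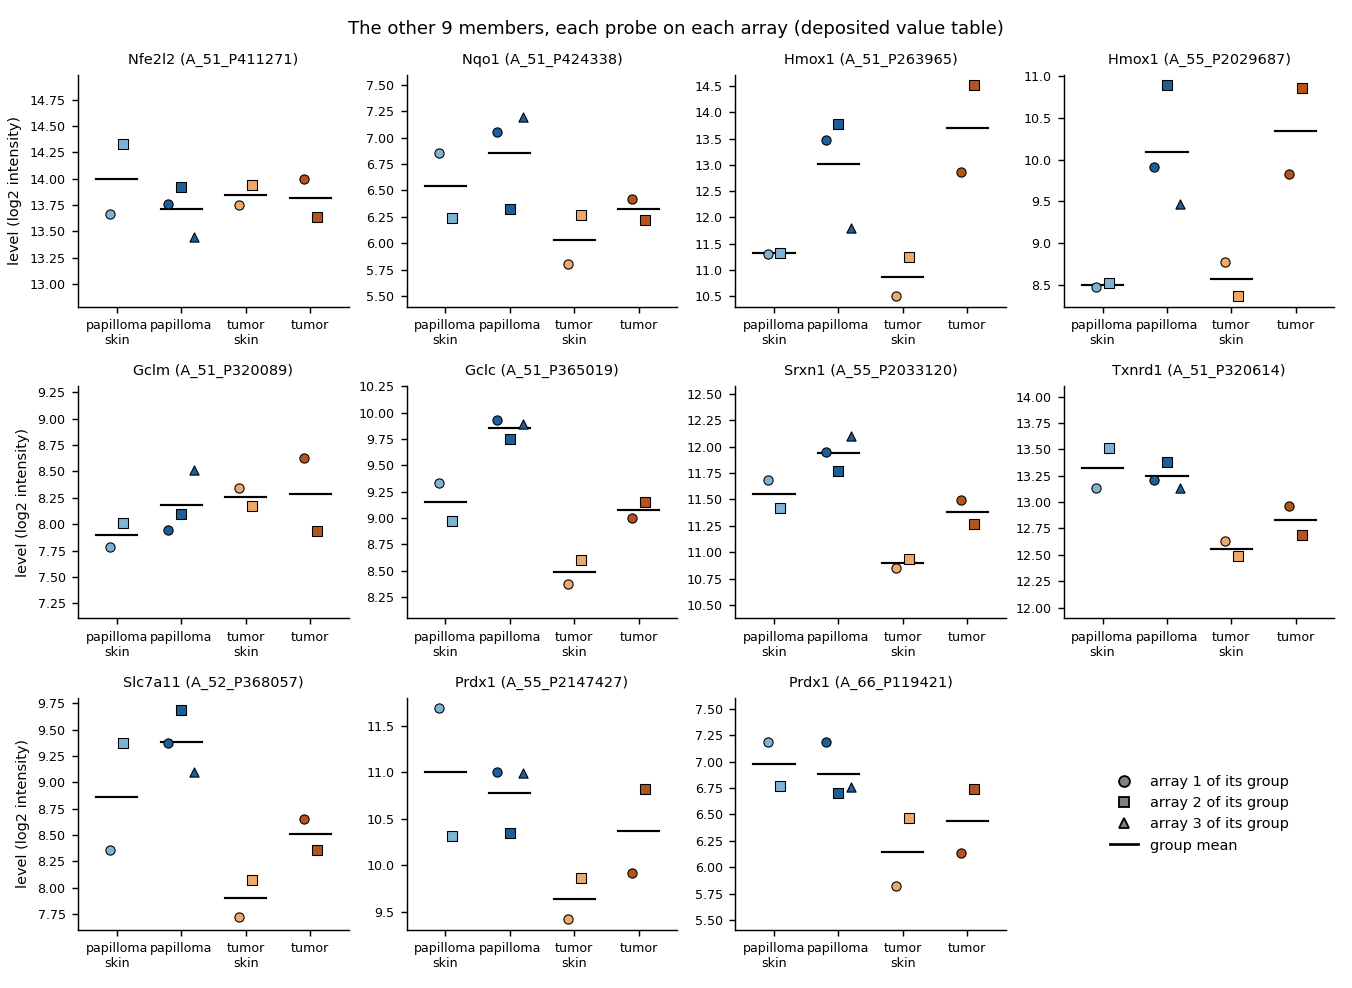
Level (y axis, log2 intensity) of each probe of the other 9 genes in the 4 groups (x axis) from the deposited table; points are arrays, shapes their number within the group and lines group means. The y axes start above 0 and differ between panels; Hmox1 on both probes, Gclc and Srxn1 are the panels in which every lesion array lies above every array of its own skin at both stages.

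A probe was called where the Benjamini-Hochberg adjusted p over all 55681 probes was at most 0.05, the absolute log2 difference at least 1 and the mean level at least 6, and all 12 probes had a mean level of at least 6. In papilloma versus papilloma skin 3.18% of all probes were called and 0 of the 11 probes of the other 9 genes. Of the 11, 4 had an unadjusted p under 0.05 by limma, as had 11540 of all 55681 probes. In tumor versus tumor skin 4.21% of all probes were called and 1 of the 11. Here too 4 of the 11 had an unadjusted p under 0.05, beside 14997 of all 55681 probes. Nothing is read from these counts, since the genes were chosen around a lesion difference. Without overlap between groups, 4 of the 11 were higher in papilloma than in papilloma skin and 0 lower (19.8% and 17.8% of all probes), and 7 of the 11 were higher in tumor than in tumor skin and 0 lower (25.7% and 26.4%). The medians over the 11 probes were 0.31 in papilloma and 0.49 in tumor, beside -0.01 and -0.02 over all probes. From the scanner output limma called 0 of all probes in the fits on 9 arrays (4998 in papilloma and 1438 in tumor had an unadjusted p under 0.05 after quantile normalization without a slide term) and 6 probes, for papilloma against its skin, when fitted to the 6 arrays without the 3 that stood apart, a choice made after seeing the data. All 12 probes, Akr1b8 included, were higher in papilloma than in papilloma skin in 4 of 5 treatments of the scanner output. On the 6 arrays 8 of 12 were higher, as in the deposited values (8 of 12). The share of all probes higher by sign was not counted, and Akr1b8 was chosen for this difference. Nothing is therefore read from the counts by sign. The medians over all probes in the 4 treatments were 0.10 (quantile, slide term), 0.13 (quantile, no slide term), 0.03 (normexp) and -0.37 (75th percentile).

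Between the stages, limma called 0 of the 12 probes in tumor versus papilloma, against 0.447% of all probes called. An unadjusted p under 0.05 was found for 4 of the 12, beside 8032 of all 55681 probes. Tumor lay below papilloma without overlap on 4 probes (Gclc, Srxn1, Txnrd1 and Slc7a11) and above it on 0, where 18.2% of all probes lay below and 18.0% above. In the scanner output after quantile normalization Gclc, Srxn1, Txnrd1 and Nqo1 lay below and 0 above, and Slc7a11 overlapped. In the scanner signal before any scaling 2 probes lay above and 0 below. The share of all probes without overlap was not counted for the scanner output, so nothing is read from its counts. Between the skins, limma again called 0 of the 12 (background 0.260%), with 6 at an unadjusted p under 0.05 beside 12656 of all 55681 probes. In the deposited values 8 of the 12 were lower in tumor skin than in papilloma skin without overlap and 1 was higher, beside 24.7% and 24.2% of all probes. In the scanner output after quantile normalization all 12 overlapped and 9 of the 12 differences were above 0 without a slide term. Again no share over all probes was counted there. Txnrd1 had a skin difference of -0.76 (SE 0.19, adjusted p = 0.0856) in the table, Srxn1 -0.66 (SE 0.17, adjusted p = 0.0977) and Prdx1 -1.36 on A_55_P2147427 (SE 0.47, adjusted p = 0.156). The lesion effect did not differ past the threshold between stages for any of the 11 probes (limma, 0 called, background 0.0269%). Of the 11, 0 had an unadjusted p under 0.05, beside 8174 of all 55681 probes. The stage difference with the widest interval was that of Hmox1 on A_51_P263965, 1.12 (95% interval -1.05 to 3.29).

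**Figure D3:**
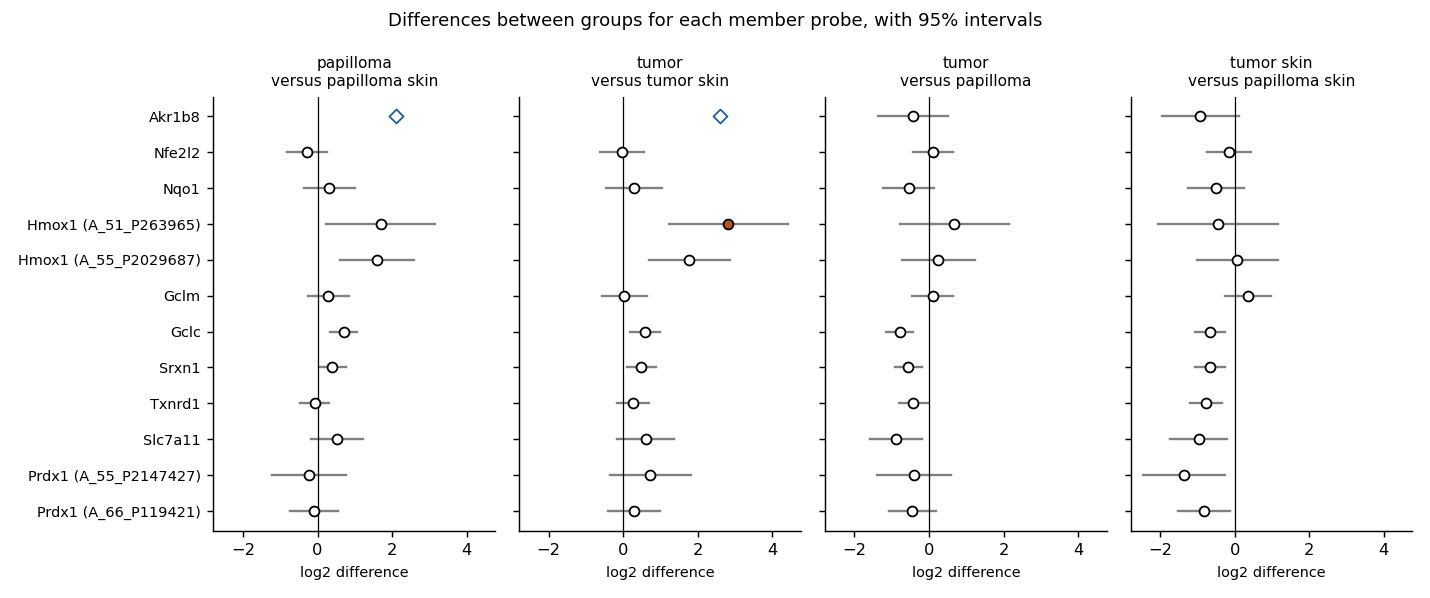
Difference between group means (x axis, log2) for each of the 12 probes (y axis) in 4 comparisons; lines are 95% intervals from limma and the vertical line is 0. Blue diamonds give Akr1b8 against skin, at 2.11 and 2.59, with no interval because it was chosen on these values, and the filled circle is the call of Hmox1 in tumor at 2.82.

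Known NRF2 targets beyond these genes went in both directions. Of 36 such genes 35 were on the array with 53 probes, and 6 probes (11.3%) were called in papilloma versus papilloma skin, 1 higher and 5 lower, where 2.18% and 1.00% of all probes were called higher and lower. In tumor versus tumor skin 13 probes (24.5%) were called, 8 higher and 5 lower, where 2.71% and 1.51% of all probes were called. The list's median was -0.06 in papilloma and -0.01 in tumor, beside -0.01 and -0.02 over all probes, and with the 7 columns 6 and 12 probes were called. Over all probes the 7 columns gave 1018 and 1759 calls. Leaving out tumor 2 left 3 of the list's calls in tumor, leaving out tumor skin 1 left 7, and a slide term on the deposited values left 0. Over all probes the calls in tumor went from 2346 to 804, 1966 and 209 in the same order. With the replicate number as a block 2 of the list's probes were called in tumor, beside 737 of all probes. From the scanner output none of the list's probes was called, and in tumor 0 of all probes.

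Osgin1, an oxidative stress induced growth inhibitor, rose in papilloma by 1.66 (SE 0.16, adjusted p = 0.00106), from 12.90 and 13.33 to 14.87, 14.72 and 14.73. In tumor it was at 14.01 and 13.95, beside 13.76 and 13.93 in tumor skin, a difference of 0.14 (adjusted p = 0.660). The glutathione S-transferase Gsta4 rose in tumor by 2.44 (SE 0.51, adjusted p = 0.0250). Gsta2, another of these enzymes, was at 5.42 and 5.79 in tumor skin and 7.63 and 9.49 in tumor. All 4 of its skin values were under 6, so it met the level minimum only through the lesions, and its difference of 2.96 is given as a description. On papilloma skin 2 and tumor skin 2, Gsta2 was not well above background and Gsta4 was so on a share of 0.1 of its spots, so 1 of the 2 tumor skin arrays measured each. Abcc1, an exporter of glutathione conjugates, rose in tumor by 2.07 (SE 0.35, adjusted p = 0.0112) from 6.86 and 7.32 to 8.93 and 9.38. In papilloma Gsta2, Gsta4 and Abcc1 had differences of 1.64, 1.06 and 1.28, none of them called.

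G6pdx, which makes NADPH at the entry of the pentose phosphate pathway, fell from 13.16 and 13.76 in papilloma skin to 12.06, 11.86 and 12.06 in papilloma, and from 14.74 and 14.82 in tumor skin to 12.41 and 11.78 in tumor. It fell by 1.47 (SE 0.23, adjusted p = 0.00941) and by 2.68 (SE 0.26, adjusted p = 0.00163). Taldo1 (transaldolase) fell by 1.06 in papilloma and 1.47 in tumor. Tkt (transketolase) fell by 1.54 in papilloma (SE 0.13, adjusted p = 0.000780), and in tumor it differed by -0.70, under the minimum of 1. Mgst1, a microsomal glutathione S-transferase, fell on both probes at both stages, by 1.63 and 1.56 in papilloma and by 1.04 and 1.09 in tumor. The remaining call below skin was Pgd, named after its values were seen, which fell by 1.15 in tumor (adjusted p = 0.0263). All genes called lower are thus named, whereas some of the 6 genes called higher in tumor are not.

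**Figure D4:**
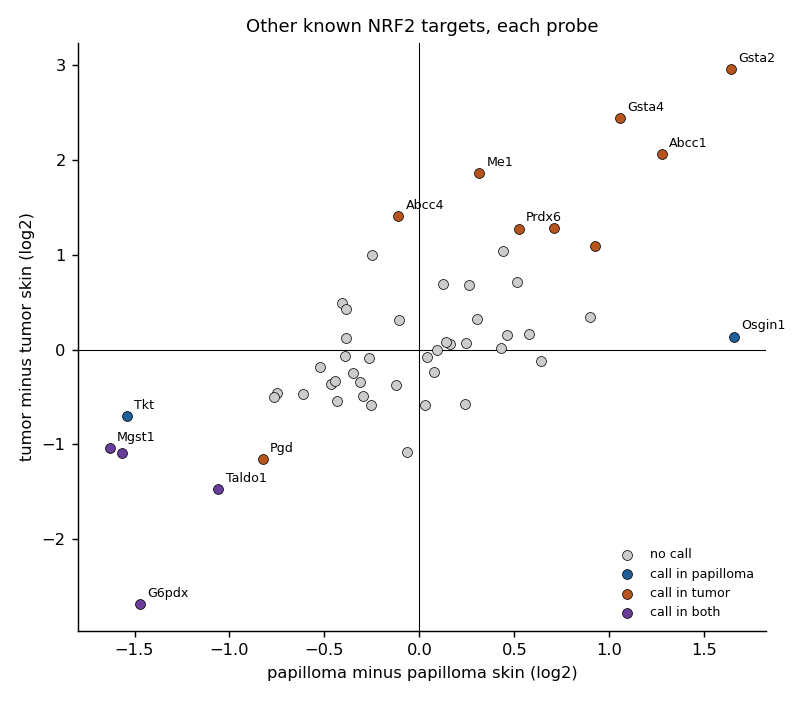
Difference of papilloma from papilloma skin (x axis, log2) and of tumor from tumor skin (y axis, log2) for 53 probes of 35 further NRF2 targets. Each point is a probe, colored by where it was called and named where it was; 3 genes, G6pdx, Mgst1 and Taldo1, were called in both, all lower than skin.

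Among 15 partners and regulators of NRF2 (26 probes), 2 probes were called in papilloma, both higher, and 4 in tumor, 3 higher and 1 lower. Of all probes 2.18% and 2.71% were called higher and 1.00% and 1.51% lower. With a slide term the counts were 2 and 0, without tumor 2 they were 2 and 2, and from the scanner output both were 0. Over all probes the slide term gave 981 and 209 calls, and leaving out tumor 2 gave 1685 and 804. Maff and Mafk, small MAF proteins that pair with NRF2, with NFE2 and with the repressor BACH1, rose at both stages. Maff rose from 12.13 and 12.54 to 13.88, 14.11 and 13.75 in papilloma (1.58, SE 0.17, adjusted p = 0.00187) and from 12.19 and 12.19 to 13.57 and 13.44 in tumor (1.32, SE 0.19, adjusted p = 0.00638). Mafk rose by 1.46 (SE 0.13, adjusted p = 0.000784) and 1.12 (SE 0.14, adjusted p = 0.00430). Atf4, a stress factor that also drives Slc7a11, rose in tumor by 1.18 on A_55_P1979728 (SE 0.25, adjusted p = 0.0252), and Nfe2 fell by 1.64 (SE 0.22, adjusted p = 0.00525). The other Atf4 probe, A_51_P464238, was well above background on every array and was not called in tumor. Keap1 differed from skin by 0.00 in papilloma and 0.48 in tumor, and Bach1 by -0.27 and -0.15, none of them called.

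Of 15 other antioxidant enzymes (21 probes) 2 probes were called at each stage, beside 3.18% of all probes in papilloma and 4.21% in tumor. With a slide term the counts were 1 and 0, beside 981 and 209 of all probes. In tumor 1 was called without papilloma 1, tumor skin 1 or tumor 1 or with the 7 columns (1694 to 2180 of all probes). In papilloma 1 was called without papilloma skin 2, papilloma 1 or papilloma 3 (1262 to 1413 of all probes). Gpx1, a glutathione peroxidase, fell by 1.22 in papilloma (SE 0.15, adjusted p = 0.00328) and by 1.32 in tumor (SE 0.16, adjusted p = 0.00403). Cat (catalase) fell by 1.41 in tumor on A_55_P2148873 (adjusted p = 0.0365), and Sod3, the secreted superoxide dismutase, rose by 1.78 in papilloma (adjusted p = 0.0308). On A_51_P191611, which was not called in tumor, Cat was at 6.34 and 5.92 in tumor skin and 6.00 and 5.97 in tumor. That probe was not well above background on tumor skin 2. In the rest of the aldo-keto reductase family, where 8 of 19 probes had a mean level of at least 6, 1 probe was called in papilloma, Akr1c13 at -1.03 (SE 0.24, adjusted p = 0.0453), and 0 in tumor by limma (3 with an unadjusted p under 0.05). The papilloma call was lost with a slide term, with the 7 columns and on leaving out any array other than those of tumor skin. Over all probes 3.18% were called in papilloma and 4.21% in tumor, and 14997 of 55681 had an unadjusted p under 0.05 in tumor.

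Markers of other cells moved with the lesions. All 16 neutrophil genes were well above background on all 9 arrays, but so were all 11 macrophage genes. The summed neutrophil level was 20.08 to 20.41 in skin and 19.84 to 20.07 in lesions. Of the 19 neutrophil probes 5 were called in papilloma and 7 in tumor, all lower than in skin. Over all probes 2.18% and 2.71% were called higher in papilloma and in tumor, and 1.00% and 1.51% lower. Of 25 keratinocyte probes 5 were called in papilloma and 6 in tumor, all higher, and the summed level of the 16 genes was 12.67 to 13.85 on skin arrays and 14.11 to 16.04 on lesion arrays. Of these 16 genes 12 were well above background on all 9 arrays. Krt6b on A_66_P101935 rose by 4.88 in papilloma (adjusted p = 0.00298) and by 7.23 in tumor (adjusted p = 0.00131). On its other probe, A_51_P126275, it was at 6.24 and 6.46 in papilloma skin and 10.25, 9.78 and 8.89 in papilloma. There it was at 7.19 and 7.95 in tumor skin and 10.6 and 12.2 in tumor. Of 12 endothelial probes 7 and 2 were called, all higher. Of 8 red blood cell probes 4 were called in papilloma, all lower, and 7 in tumor, all higher, with sums of 17.18 to 18.25 in skin, 14.84 to 16.15 in papilloma and 19.48 to 20.05 in tumor. With the 7 columns 0 and 2 of the red blood cell probes were called, and with a slide term 0 red blood cell and 0 endothelial probes were called at either stage. Over all probes the 7 columns gave 1018 and 1759 calls and the slide term 981 and 209. The slide term left 5 keratinocyte calls in papilloma and 1 in tumor, and 4 and 3 neutrophil calls. It left 4 and 4 eosinophil, 2 and 2 macrophage and 2 and 1 fibroblast calls. From the scanner output 0 probes of these marker lists were called at either stage. Eosinophil markers had 4 called probes lower in papilloma, and 4 lower and 2 higher in tumor, of 9. Both higher calls were probes of Siglec5, and all calls of other genes in that list were lower. The paper, too, reports the Siglec5 transcript as raised in these arrays. It also reports the protein of this gene, Siglec F, on part of the neutrophils in grafted tumors. Macrophage markers had 2 called lower at each stage, both Emr1, and fibroblast markers had 2 called higher in papilloma and 2 higher and 1 lower in tumor. Akr1b8, Hmox1 and the glutathione S-transferases are also expressed outside neutrophils, and the part of these other cells in their values was not tested. In bulk samples fewer cells of a type and less RNA per cell cannot be told apart.

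**Figure D5:**
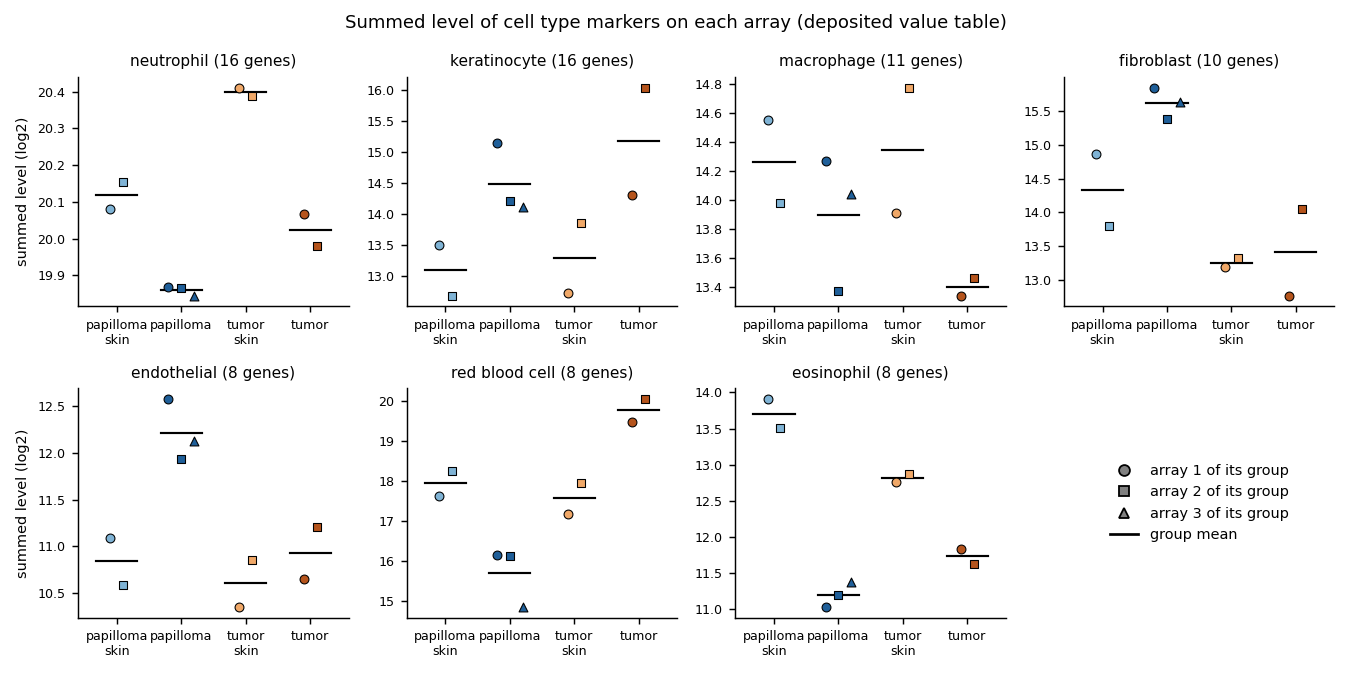
Summed level (y axis, log2 of the sum of linear values over the genes of a list) of 7 lists of cell type markers on each array, by group (x axis); points are arrays, shapes their number within the group and lines group means. Keratinocyte sums are at least 14.11 on all lesion arrays and at most 13.85 on all skin arrays, and the y axes differ between panels and start above 0.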

How the data were processed

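Total RNA of the sorted neutrophils, carrying the dye Cy3, was measured on 9 one-color Agilent mouse arrays on 3 slides. The authors deposited scanner output, in which each spot has an intensity, and a table of log2 values with 1 value per probe. Their methods name quantile normalization in limma and a batch correction for the chips, and which of these steps the deposited log2 table holds is not given in the sources used here. Slide could therefore shift these values, and the fit cannot count degrees of freedom that such a correction used up. Enzyme treatment differed between all lesion and all skin samples, so effects of lesion and of digestion cannot be told apart.

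The deposited log2 values were fitted per probe with limma 3.58.1 in R 4.3.3, with the 4 groups as the design, all 9 arrays and 5 residual degrees of freedom. P-values were adjusted over all 55681 probes by the method of Benjamini and Hochberg. Calls needed all of the following: adjusted p no higher than 0.05, a log2 difference of 1 or more in size, and 6 or more as the mean log2 level over arrays. The stage difference was tumor minus tumor skin less papilloma minus papilloma skin. The fit was tested on simulated data. Gene names were those of the array design.

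The members, gene lists and marker lists were chosen with earlier results of these data known. Named were all members, the genes of each list called in a lesion (at most 4 rises and 4 falls), 3 near relatives of Akr1b8 and the 5 genes most like it. The alternatives were the deposited intensity values (quantile, 75th percentile, or normexp with an offset of 50), a slide term, a replicate block, no level minimum, probes well above background, gene medians, 7 columns, and leaving out each array. Quantile normalization of the 6 scanner arrays without the 3 that stood apart was added after seeing the data.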

Additional observations from a re-analysis of the deposited data

How the results depend on the processing

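The calls depended on the deposited table. From the scanner output (quantile with or without a slide term, 75th percentile, normexp, and the 6 arrays chosen after seeing the data), 0 member probes were called in tumor versus tumor skin, against 1, and 0 of the other NRF2 targets were called in papilloma and in tumor, against 6 and 13. For papilloma against its skin, over all probes, the same output gave 0 calls on 9 arrays (4998 probes with an unadjusted p under 0.05 by limma after quantile normalization without a slide term) against 1769. With a slide term on the deposited values, 1 member probe was called in papilloma and 0 in tumor, 0 other NRF2 targets in tumor, and 981 and 209 of all probes against 1769 and 2346. The 7 columns gave 0 member probes in tumor, and probes well above background gave 2. Leaving out 1 array gave 0 to 2 member probes in tumor, and 3 to 13 other NRF2 targets in tumor. Over all probes the same fits called 804 to 2382 in tumor. The cause of these changes was not tested.

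Tumor skin minus papilloma skin changed sign in the scanner output. After quantile normalization with a slide term and without one it was 0.36 and 0.31 for Gclc, 0.59 and 0.41 for Slc7a11, 0.26 and 0.23 for Srxn1, and 0.14 and 0.11 for Prdx1 on A_66_P119421. With 75th percentile scaling it was 0.23 for Gclc, 0.72 for Srxn1, 0.69 for Txnrd1, 0.16 for Prdx1 on A_55_P2147427 and 0.0989 on A_66_P119421. With normexp it was 0.35 for Gclc, 0.22 for Srxn1 and 0.0761 for Prdx1 on A_66_P119421, and on the 6 arrays 0.0504 for the latter. The 75th percentile scaling moved the median over all probes to -0.37 for papilloma minus its skin and 0.26 for tumor minus papilloma.

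Deviations from the group mean were correlated between arrays with the same replicate number, from -0.959 to 0.393 for number 1 and from -0.738 to 0.534 for number 2. In a group of 2 arrays these deviations are equal and opposite, so the 2 ranges are not separate checks. They cannot show whether arrays were paired, and the numbers served as a block only as an alternative. With the replicate block 2 of the other NRF2 targets were called in tumor, and over all probes 552, 737 and 1 were called in papilloma, tumor and tumor versus papilloma, against 1769, 2346 and 249. The Hmox1 call in tumor was kept with the block (adjusted p = 0.0394). Only 2 or 3 arrays a group limit the precision, and Nqo1 lies near background.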
